A study of Mus musculus with 16 samples.

Results

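Hepatokines are proteins that the liver secretes and that act on metabolism elsewhere in the body. The genes described here are 9 of them, taken by symbol from the authors' deposited table of gene values in mouse liver: Fgf21, Gdf15, Inhbe, Angptl4, Angptl8, Igfbp1, Igfbp2, Ahsg and Fetub. All 9 were found once each among the 30463 genes of that table, and all 9 had an adjusted p there, as did 16288 genes in all.

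RNA was sequenced from whole liver of 16 wild type C57BL/6N mice aged 14 weeks, in 4 groups of 4. On each diet, control or high fat, 1 group had received vehicle and 1 diethylnitrosamine (DEN, a liver carcinogen). Injections were given when the mice were 2 weeks old, and from 6 weeks of age the mice kept the control diet or were given a diet labelled 60% high fat. The authors' deposited table holds the outcome of 1 comparison and does not name its sides, so each gene is described as higher on the positive or on the negative side, and neither side is tied here to a diet or to DEN. The 16 columns of values per library match no sample label and were not used, so no value per mouse, no spread within a group and no depth per library is given. Errors are the standard errors (SE) that the authors deposited.

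Fgf21 and Gdf15 encode hormones that stressed or fasted cells release. FGF21 acts through FGF receptors joined to the co-receptor beta-klotho and alters fuel use, and GDF15 acts through a receptor in the hindbrain and lowers food intake. Inhbe encodes the subunit of activin E, a TGF-beta family ligand made mainly by hepatocytes. ANGPTL4 and ANGPTL8 restrain lipoprotein lipase, the former typically in fasting and the latter after feeding. IGFBP1 and IGFBP2 bind insulin-like growth factors in plasma, and insulin represses Igfbp1 in liver through FOXO1. Ahsg and Fetub encode fetuin-A and fetuin-B, abundant plasma proteins of the cystatin superfamily. Fgf21 and Angptl4 are textbook targets of the fatty acid sensor PPAR alpha, and Fgf21, Gdf15 and Inhbe are targets of the integrated stress response, in which the factor ATF4 binds composite sites it shares with C/EBP proteins.

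Promoters are shown for 4 genes because their letters hold a short motif that relates to these regulators. The windows run from 250 bases before to 50 bases after the RefSeq start site on GRCm38.p6, and 8 of the 9 genes had at least 1 window, Angptl4 being the gene without. Sequences read 5′ to 3′ on the strand of the gene. In the first 3 the capitals mark TGATGCAA or its reverse complement TTGCATCA, the letters of an ATF and C/EBP composite site, and in the fourth they mark CAAAACAA, part of an insulin response sequence.
Fgf21, chr7:45615441-45615740, minus strand: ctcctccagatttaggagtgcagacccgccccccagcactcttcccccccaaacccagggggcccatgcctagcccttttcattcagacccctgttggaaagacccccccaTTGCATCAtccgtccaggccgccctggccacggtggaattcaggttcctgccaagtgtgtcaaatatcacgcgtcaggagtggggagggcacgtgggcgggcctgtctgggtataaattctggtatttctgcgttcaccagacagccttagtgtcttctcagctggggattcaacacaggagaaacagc
Inhbe, chr10:127351799-127352098, minus strand: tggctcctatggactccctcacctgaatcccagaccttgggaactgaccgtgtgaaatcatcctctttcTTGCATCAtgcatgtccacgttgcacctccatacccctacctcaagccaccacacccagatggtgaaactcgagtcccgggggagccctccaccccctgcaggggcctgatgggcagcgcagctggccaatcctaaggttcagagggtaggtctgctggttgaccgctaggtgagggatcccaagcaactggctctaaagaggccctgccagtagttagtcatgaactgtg
Angptl8, chr9:21835260-21835559, plus strand: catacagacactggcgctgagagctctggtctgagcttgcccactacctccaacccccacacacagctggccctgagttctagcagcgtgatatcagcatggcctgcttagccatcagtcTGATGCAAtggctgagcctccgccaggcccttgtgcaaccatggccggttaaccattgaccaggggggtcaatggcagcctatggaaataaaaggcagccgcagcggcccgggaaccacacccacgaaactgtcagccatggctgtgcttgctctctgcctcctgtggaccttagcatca
Igfbp1, chr11:7197537-7197836, plus strand: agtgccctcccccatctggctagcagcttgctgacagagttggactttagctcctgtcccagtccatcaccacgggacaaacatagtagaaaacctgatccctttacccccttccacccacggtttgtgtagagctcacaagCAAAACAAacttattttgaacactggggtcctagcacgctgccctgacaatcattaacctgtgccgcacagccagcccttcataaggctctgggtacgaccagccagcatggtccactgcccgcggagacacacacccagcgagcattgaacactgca

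The composite letters begin 139 bases before the start site in Fgf21, 181 bases before it in Inhbe and 130 bases before it in Angptl8. They lie on the strand of the gene in Angptl8 and on the opposite strand in Fgf21 and Inhbe. Of the 27025 genes with RefSeq windows of this length, 279 (1.03%) have TGATGCAA on either strand in at least 1 window, as do 3 of the 8 members with a window. By windows, 294 of 32851 (0.895%) hold it. CAAAACAA begins 108 bases before the start site in Igfbp1, the only 1 of the 8 with it, and 2.88% of all genes with a window have it on either strand. The E-box CACGTG, which reads the same on both strands, is in windows of Fgf21, Gdf15 and Igfbp2 and of 8.09% of all genes with one. TATAAA is in windows of Fgf21 and Fetub and, on either strand, of 15.7% of all genes with one. None of the 4 motifs overlaps another in these windows. The motifs were chosen with the gene values and these promoter sequences known, so the matches are descriptions of the letters.

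Of the 9 genes, 3 passed an adjusted p below 0.05 in the authors' deposited table, with Fgf21 and Angptl8 higher on the positive side and Ahsg higher on the negative side. Among all 16288 tested genes 6.57% passed, with 3.67% on the positive and 2.90% on the negative side. By sign alone, 4 of the 9 log2 fold changes were positive and 5 negative, with a median of -0.17. Over all tested genes 49.2% were positive in sign, and the median was -0.0044. The counts given for each list below stand beside these shares over all tested genes. At an unadjusted p under 0.05 there were 5 of the 9 genes, beside 19.0% of all tested genes, the additional pair being Inhbe and Gdf15. These calls rest on the authors' normal p-values: with a t distribution of 12 degrees of freedom, with every statistic divided by the median absolute deviation (1.44), or with Bonferroni adjustment, 0 of the 9 genes passed. Of 135 tested genes of the 11 related lists below, 24 passed as deposited and 7 under each of these settings, namely Pcsk6, Vnn1, Pex11a, Srebf1, Pck1, Tat and Ppargc1a. In whole liver, fewer cells of a type and less RNA per cell cannot be told apart.

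**Figure D1:**
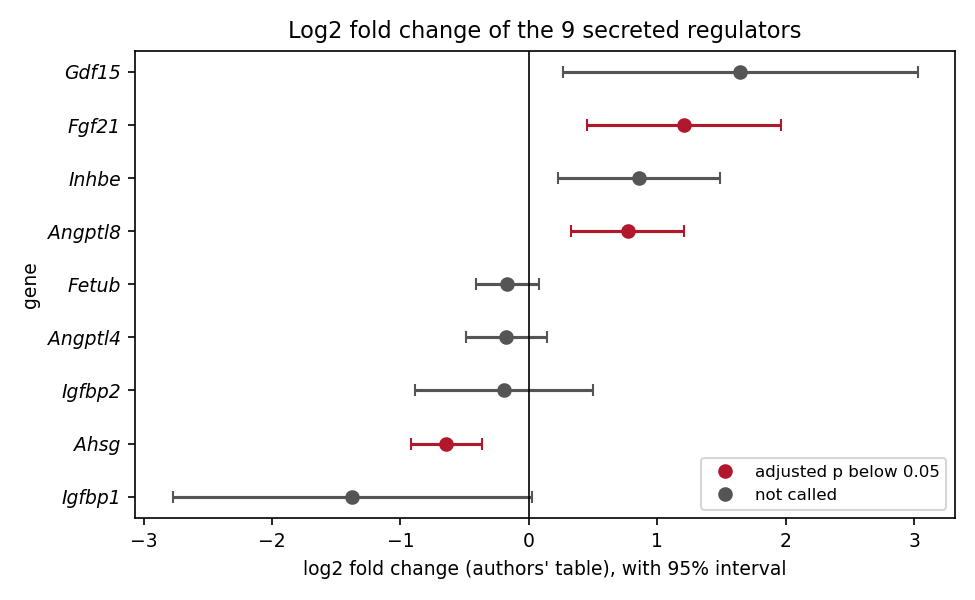
Fold change on the log2 scale (horizontal axis) of each of the 9 genes in the authors' deposited table, with bars for the 95% normal interval from the authors' SE; red points passed an adjusted p below 0.05. The intervals of Gdf15, Fgf21, Inhbe and Angptl8 lie above 0, that of Ahsg lies below 0, and those of the other 4 genes include 0.

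Among the stress hormones, Fgf21 (ENSMUSG00000030827, chromosome 7 from 45613886 to 45615490, GRCm38) was higher on the positive side. The authors' deposited table put it at a log2 fold change of 1.21 ± 0.39 (SE, adjusted p = 0.0332), which is 2.31-fold with a 95% interval from 1.37-fold to 3.90-fold. It had the lowest mean normalized count of the 9, at 132.3 in the authors' deposited table. Fgf21 was the only one of the 9 that both passed the test and had a change of at least 2-fold. With Benjamini-Hochberg adjustment over every gene with a p-value, Fgf21 was no longer called, while Angptl8 and Ahsg were.

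Gdf15 (ENSMUSG00000038508, chromosome 8 from 70629393 to 70632456) had the highest fold change of the 9 but did not pass. In the authors' deposited table it was at 1.64 ± 0.70 (log2, SE, adjusted p = 0.154) with a mean normalized count of 216.9. The 95% interval of its fold change ran from 1.20-fold to 8.14-fold, which holds the whole interval of Fgf21.

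Inhbe (ENSMUSG00000047492, chromosome 10 from 127348857 to 127354411) lay just outside the threshold. The authors' deposited table put it at a log2 fold change of 0.86 ± 0.32 (SE, adjusted p = 0.0896), or 1.81-fold with a 95% interval from 1.17-fold to 2.81-fold, at a mean normalized count of 1934. It was called only when the threshold on the adjusted p was moved to 0.1. Gm47200, annotated on the opposite strand across Inhbe with no exon in common, had a mean normalized count of 2.10 in the authors' deposited table.

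The receptors through which FGF21 acts did not pass the test. Of 7 tested genes of the FGF21 receptor list, 0 were called in the authors' deposited table, with a median log2 fold change of -0.16 and 2 of the 7 positive in sign. Klb, the co-receptor beta-klotho, was at -0.49 ± 0.28 (SE on the log2 scale, adjusted p = 0.325; authors' deposited table). The receptors Fgfr1, Fgfr2, Fgfr3 and Fgfr4 were at -0.31 ± 0.18, -0.16 ± 0.18, 0.45 ± 0.22 and -0.19 ± 0.13 there (log2, SE). The lowest adjusted p of these receptors was 0.249, that of Fgfr3.

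For GDF15, genes of its receptor complex, with the receptor partner Ret, were listed together with proteases. Ret had a mean normalized count of 0.338 in the authors' deposited table and no adjusted p, and the receptor gene Gfral was not found there by symbol. Of 4 tested genes, the proprotein convertase Pcsk6 was higher on the positive side at 0.47 ± 0.08 (SE on the log2 scale, adjusted p = 6.2e-07; authors' deposited table). The membrane protease Mmp14 was higher on the negative side at -0.45 ± 0.14 (SE on the log2 scale, adjusted p = 0.0274; authors' deposited table). Furin, the common convertase, was at -0.09 ± 0.11 (SE on the log2 scale, adjusted p = 0.707; authors' deposited table).

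Of 10 tested activin and inhibin genes, which include Inhbe, 1 was called in the authors' deposited table, and the median log2 fold change was -0.26. That gene was Fst, which encodes follistatin, a secreted protein that binds and neutralises activins, at -1.05 ± 0.34 (log2, SE, adjusted p = 0.0329) on the negative side. The other subunit genes did not pass. Inhbc, the other subunit gene with expression mainly in liver, was at 0.17 ± 0.18 and Inhba at 0.39 ± 0.20 in the authors' deposited table (log2, SE). Inhbb was at -0.70 ± 0.59 there (log2, SE), and the receptor genes Acvr1b, Acvr2a and Acvr2b were between -0.35 and -0.14.

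The integrated stress response list, which holds none of the 9 genes, was mixed in direction. Of 20 tested genes, 2 were called positive and 1 negative in the authors' deposited table, with a median of 0.15. Atf4, the central factor, was higher on the positive side at 0.36 ± 0.09 (log2, SE, adjusted p = 0.00198) and Atf3, a stress-induced factor, at 2.26 ± 0.58 (log2, SE, adjusted p = 0.00476). Cth, which encodes the transsulfuration enzyme cystathionine gamma-lyase, was higher on the negative side at -0.76 ± 0.24 (SE on the log2 scale, adjusted p = 0.0273; authors' deposited table). Ddit3, which encodes CHOP, was at 0.69 ± 0.25 and the amino acid response gene Asns at -0.73 ± 0.37 on the log2 scale with SE, with adjusted p of 0.0822 and 0.257 in the authors' deposited table. The letters TGATGCAA are in windows of 5 of the 19 genes of this list that have one, Atf3, Chac1, Nupr1, Slc7a11 and Vldlr. Of those 5, Atf3 alone was called.

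The lipase regulators differed in outcome. Angptl8 (ENSMUSG00000047822, chromosome 9 from 21835510 to 21837347) was higher on the positive side at 0.77 ± 0.23 (SE on the log2 scale, adjusted p = 0.0171; authors' deposited table), or 1.70-fold with a 95% interval from 1.25-fold to 2.31-fold. Its mean normalized count there was 514.1. Angptl8 lies inside Dock6, a gene of the opposite strand with which it shares no exon sequence, and Dock6 was at 0.01 ± 0.13 (SE on the log2 scale, adjusted p = 0.977; authors' deposited table). No source used here states whether reads were counted by strand, which bears on genes whose exons overlap on opposite strands.

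Angptl4 (ENSMUSG00000002289, chromosome 17 from 33773750 to 33781830) was at -0.18 ± 0.16 (SE on the log2 scale, adjusted p = 0.615; authors' deposited table), with a mean normalized count of 2745. The 95% interval of its log2 fold change, from -0.49 to 0.14, does not overlap that of Angptl8, from 0.33 to 1.21. The difference between these 2 genes was not tested, since both were measured in the same libraries and their covariance is not known. Of 11 tested genes of the angiopoietin-like and lipase list, Angptl8 was the only one called, and the list's median was -0.040. Lpl, the lipoprotein lipase gene itself, was at 0.18 ± 0.21 and Lmf1, a lipase maturation factor, at 0.31 ± 0.11 (log2, SE, adjusted p = 0.0672 for Lmf1) in the authors' deposited table.

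PPAR alpha targets were listed for Fgf21 and Angptl4, and genes of feeding for Angptl8. Of 18 tested PPAR alpha genes, 5 were called positive and 0 negative in the authors' deposited table, with a median of 0.38, while the receptor gene Ppara was at 0.01 ± 0.17 (log2, SE). Among the called genes were Vnn1, a pantetheinase (1.63 ± 0.28), Pex11a, a peroxisome division factor (0.94 ± 0.17), Fabp1, the liver fatty acid binding protein (0.92 ± 0.25) and Plin2, a lipid droplet coat protein (0.77 ± 0.25), as log2 and SE in the authors' deposited table. In sign, 15 of the 18 were positive and 3 negative. The negative ones include Cyp4a10 (-0.79 ± 0.56, adjusted p = 0.479) and Cpt1a (-0.34 ± 0.13, adjusted p = 0.0834), as log2 and SE in the authors' deposited table. Fgf21 had the sign of the 5 called genes, and the interval of Angptl4 includes 0. Whether PPAR alpha has a part in either was not tested. Of 16 genes raised by insulin and feeding, 3 were called positive and 0 negative, with a median of 0.35 in the authors' deposited table. Among them were Srebf1, a regulator of lipid synthesis (1.41 ± 0.23), and Thrsp, a lipogenic protein (1.69 ± 0.49), as log2 and SE in the authors' deposited table. By sign 13 of the 16 were positive and 3 negative, and the most negative was the desaturase gene Scd1 at -1.14 ± 0.47 (SE on the log2 scale, adjusted p = 0.136; authors' deposited table). Angptl8 at 0.77 had the sign of the 3 called genes.

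**Figure D2:**
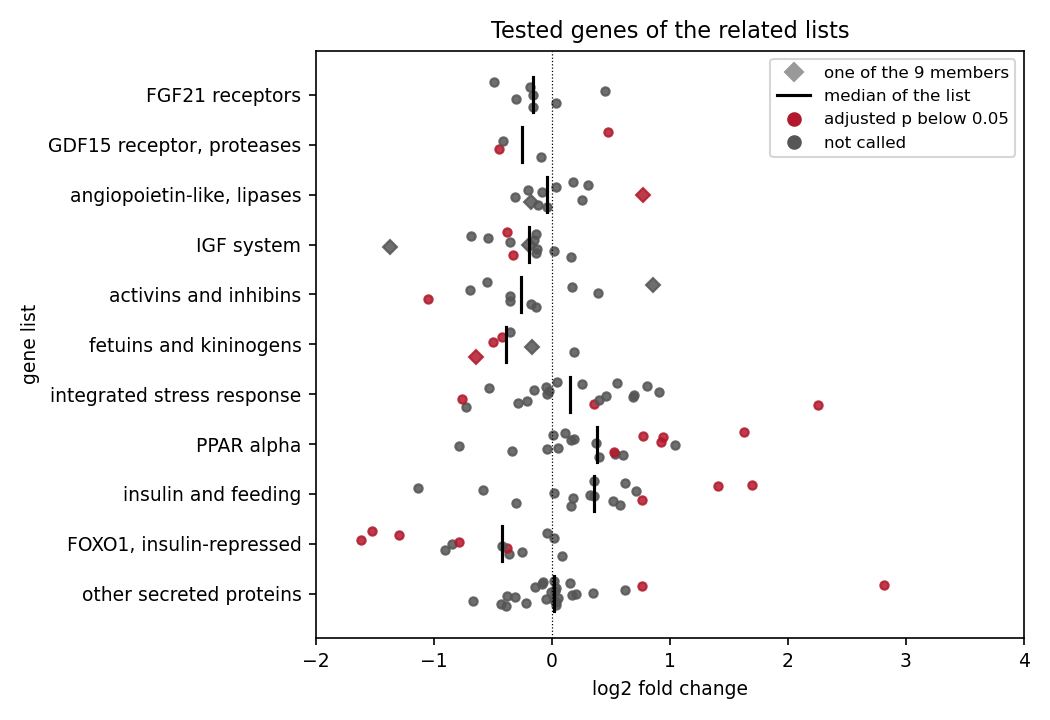
Fold change on the log2 scale (horizontal axis, authors' deposited table) of every tested gene of the 11 related lists (rows), with diamonds for the 9 genes where a list holds them, black bars for list medians and red for an adjusted p below 0.05. Medians run from -0.43 for the FOXO1 and insulin-repressed list to 0.38 for the PPAR alpha list.

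Neither IGF binding protein gene passed. Igfbp1 (ENSMUSG00000020429, chromosome 11 from 7197782 to 7202546) had the most negative log2 fold change of the 9, at -1.38 ± 0.71 (SE; adjusted p = 0.272, authors' deposited table), with a mean normalized count of 4943. That is 2.60-fold higher on the negative side, with a 95% interval that runs from 0.986-fold to 6.84-fold. Igfbp2 (ENSMUSG00000039323, chromosome 1 from 72824503 to 72852474) was at -0.19 ± 0.35 (SE on the log2 scale, adjusted p = 0.834; authors' deposited table), with a mean normalized count of 8196. Its 95% interval, from -0.89 to 0.50, spans 0.

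Of 13 tested genes of the IGF system, which include Igfbp1 and Igfbp2, 11 were negative in sign, with a median of -0.19. Without these 2 members, the median of the other 11 genes was -0.15. Of all 13, 2 were called negative and 0 positive in the authors' deposited table. Those called there were Igf1, the growth factor itself, at -0.33 ± 0.10 (log2, SE, adjusted p = 0.0151) and the insulin receptor gene Insr at -0.38 ± 0.12 (log2, SE, adjusted p = 0.0378). None of the binding protein genes was called. Igfbp3, Igfbp4, Igfbp5, Igfbp6 and Igfbp7 were at -0.35 ± 0.28, -0.15 ± 0.09, -0.54 ± 0.24, -0.69 ± 0.39 and -0.14 ± 0.19 in the authors' deposited table (log2, SE). Igfals, which encodes the subunit that stabilises circulating IGF complexes, was at -0.12 ± 0.28 there (log2, SE).

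FOXO1 and genes that insulin represses, as it does Igfbp1, form the next list. Of its 13 tested genes, 5 were called negative and 0 positive in the authors' deposited table, with a median of -0.43. They were the gluconeogenic enzyme gene Pck1 (-1.62 ± 0.24), the tyrosine aminotransferase gene Tat (-1.53 ± 0.23), the coactivator gene Ppargc1a (-1.30 ± 0.22), the transcription factor gene Klf15 (-0.79 ± 0.21) and Insr, as log2 and SE in the authors' deposited table. Foxo1 was at -0.37 ± 0.18 (log2, SE, adjusted p = 0.231) there. The log2 fold change of Igfbp1 was close to those of Pck1 and Ppargc1a in size, and its SE was 0.71 against 0.24 and 0.22.

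Of the fetuins, Ahsg (ENSMUSG00000022868, chromosome 16 from 22891277 to 22899449) had the smallest p of the 9 genes. The authors' deposited table put it at a log2 fold change of -0.64 ± 0.14 (SE, adjusted p = 0.000367), which is 1.56-fold higher on the negative side with a 95% interval from 1.29-fold to 1.89-fold. With a mean normalized count of 150509 in the authors' deposited table, Ahsg held 0.738% of the sum over all genes and ranked 18 among the 16288 tested genes by that count. Gm30505, annotated on the opposite strand with exon sequence in common with Ahsg so that shared reads may not be separable, had a mean normalized count of 34.8 and a log2 fold change of -0.43 ± 0.19 (SE; adjusted p = 0.183, authors' deposited table). Fetub (ENSMUSG00000022871, chromosome 16 from 22918334 to 22939778) did not pass, at -0.17 ± 0.13 (log2, SE, adjusted p = 0.508) and a mean normalized count of 11048 in the authors' deposited table. The 95% intervals of the 2 fetuins, from -0.92 to -0.37 for Ahsg and from -0.42 to 0.08 for Fetub, overlap between -0.42 and -0.37, and their difference was not tested.

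Ahsg and Fetub stand side by side in a cluster of cystatin-related plasma protein genes that spans 190.8 kb from the start of Ahsg to the end of Kng1. In order these are Ahsg, Fetub, Hrg, Kng2 and Kng1. Hrg, which encodes histidine-rich glycoprotein, was higher on the negative side at -0.50 ± 0.13 (SE on the log2 scale, adjusted p = 0.00356; authors' deposited table). Kng1, a kininogen gene, was so too at -0.42 ± 0.12 (SE on the log2 scale, adjusted p = 0.0140; authors' deposited table). Kng2, the second kininogen gene, was at -0.35 ± 0.14 (log2, SE, adjusted p = 0.122) there, and reads of the closely similar kininogen genes may be shared. Of the 5 genes, 3 were thus called negative, and Fetub between Ahsg and Hrg was not. The flanking genes Dnajb11, a chaperone of the endoplasmic reticulum, and Eif4a2, a translation factor, were at 0.08 ± 0.28 and 0.08 ± 0.13 (log2, SE) in the authors' deposited table, neither of them called.

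**Figure D3:**
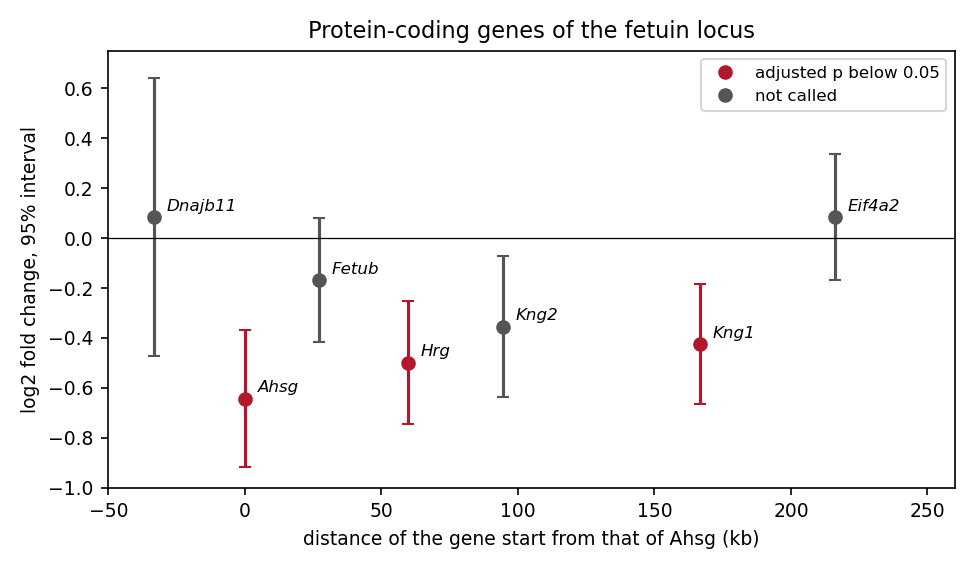
Fold change on the log2 scale from the authors' deposited table, with 95% normal intervals (vertical axis) against the distance of each gene start from that of Ahsg in kb (horizontal axis), for the 5 cystatin-related genes and the protein-coding gene on each side. Ahsg, Hrg and Kng1 (red) passed below 0, and both flanking genes are at 0.08. The interval of Dnajb11 (SE 0.28) is wide and includes the values of Kng1 and Kng2.

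The 9 genes spanned a wide range of levels. Per kb of annotated exon, the authors' mean normalized count was 68507 for Ahsg, 5631 for Fetub, 4438 for Igfbp2, 3241 for Igfbp1, 775 for Angptl4, 594 for Angptl8, 364 for Inhbe, 139 for Fgf21 and 117 for Gdf15. Per kb, the fetuins and IGF binding proteins were thus the upper 4 genes in level, and Inhbe, Fgf21 and Gdf15 the lower 3. The order per kb uses all exons annotated for a gene, which total 5.32 kb for Inhbe, the longest of the 9, and 0.865 kb for Angptl8, the shortest. The place of Inhbe depends on this length: by mean normalized count alone, Inhbe at 1934 was above Angptl8 at 514. Whether neighbours in the order per kb differ beyond the spread over mice was not tested, since only the authors' mean was used for levels. All 4 genes with a positive log2 fold change were among the lower 4 in level.

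**Figure D4:**
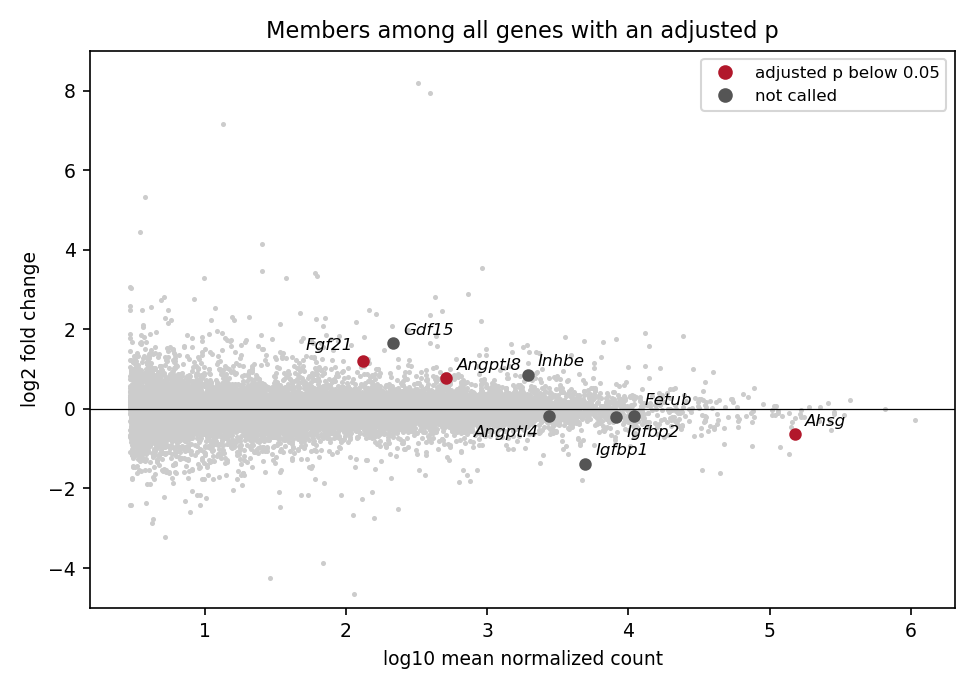
Log2 fold change (vertical axis) against log10 of the mean normalized count (horizontal axis) in the authors' deposited table, for the 16288 tested genes (grey) and the 9 genes (labelled, red where the adjusted p was below 0.05). Fgf21, Gdf15, Angptl8 and Inhbe lie above 0, and Ahsg lies at the far right below 0.

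The SE differed widely among the 9 genes. An absolute statistic of at least 2.94 was called, so that a gene's log2 fold change had to reach 2.94 times its SE. For Igfbp1 and Gdf15 this needed a change of 4.27-fold and 4.20-fold, and for Fetub and Ahsg one of 1.29-fold and 1.33-fold. The SE of Igfbp1 in the authors' deposited table was 5.47 times the median of the 710 tested genes within 2-fold of its mean normalized count, and 99.9% of them had a smaller SE. For Gdf15 it was 5.37 times the median of 4075 such genes, of which 99.5% had a smaller SE. Inhbe (2.85 times), Fgf21 (2.49), Igfbp2 (2.48), Angptl8 (2.00) and Angptl4 (1.35) were also above the median of genes of like level. Ahsg (0.713 times) and Fetub (0.853) were below it. Of the 9 genes, 7 therefore had an SE above that of the median gene of their level. The part of variation between mice, of the samples in the authors' comparison and of counting in these errors was not tested.

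**Figure D5:**
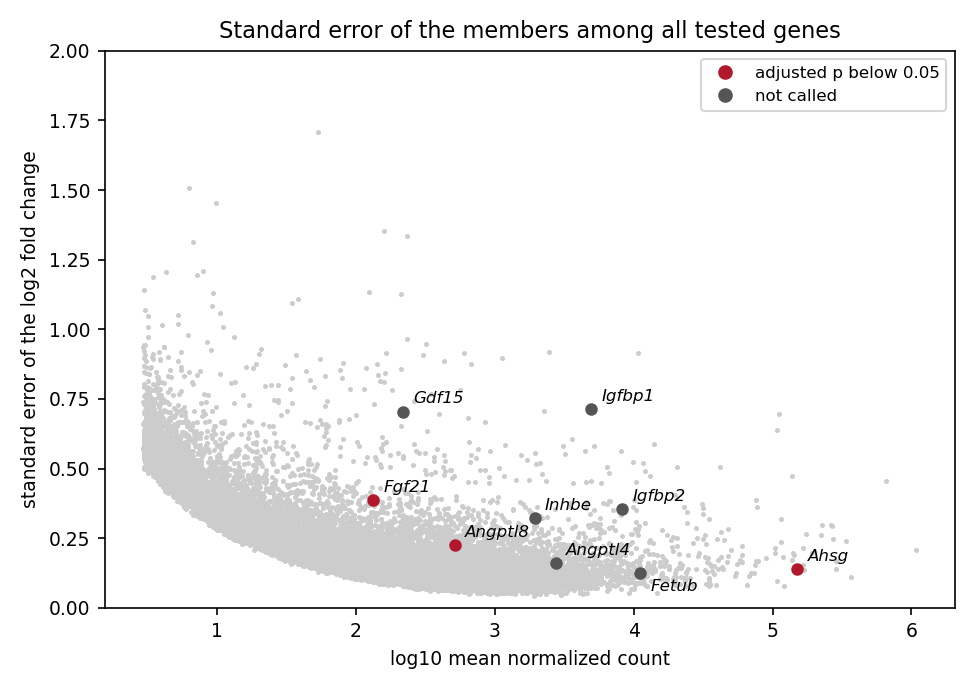
Authors' SE of the log2 fold change (vertical axis) against log10 of the mean normalized count (horizontal axis) for the 16288 tested genes (grey) and the 9 genes (labelled, red where the adjusted p was below 0.05). Igfbp1 at 0.71 and Gdf15 at 0.70 stand far above genes of like level, and Ahsg and Fetub lie within the band of such genes.

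Other secreted liver proteins were split in sign. Of 25 tested genes of that list, 14 were positive and 11 negative in sign and 2 were called positive and 0 negative in the authors' deposited table, with a median of 0.019. One of them was Serpina12, which encodes vaspin, at 0.76 ± 0.25 (log2, SE, adjusted p = 0.0435). Abundant hepatokine genes such as Selenop (-0.14 ± 0.10) and Rbp4 (0.04 ± 0.17) were not called there (log2, SE).

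Markers of cell types moved as follows beside these results, and their part in them was not tested. Of 9 tested hepatocyte markers, 0 were called in the authors' deposited table (median -0.23), among them Hnf4a (-0.28 ± 0.11), Asgr1 (0.21 ± 0.11) and Apob (-0.24 ± 0.15), and Alb, the albumin gene, had a mean normalized count of 1079857 (log2 fold changes with SE). In the authors' deposited table all 8 Kupffer cell markers were negative in sign (median -0.56) and 1, Timd4 (-0.76 ± 0.26), was called. All 8 endothelial markers there were also negative in sign (median -0.46) and 1, Bmp2 (-0.72 ± 0.23), was called. Neither Timd4 nor Bmp2 was called with Benjamini-Hochberg adjustment over every gene with a p-value (adjusted p = 0.0912 and 0.0516). None of 8 stellate cell, 6 bile duct and 7 lymphocyte markers was called, with medians of -0.071, 0.33 and -0.59. The smallest p in those lists were those of Hgf, Col1a1 and Col3a1, of Krt7, Epcam and Krt19, and of Cd3e, Nkg7 and Ptprc. Several of these genes had low mean normalized counts in the authors' deposited table: Cd3e 7.67, Nkg7 12.6, Krt7 10.3, Krt19 13.2 and Epcam 19.2. At such counts the lack of a call and the list medians say little about these cell types. Of 3 tested adipocyte-associated genes, Cfd (7.93 ± 0.69) and Pparg (1.26 ± 0.25) were called positive, while the defining adipocyte genes Adipoq, Retn and Plin1 had mean normalized counts of 0.387, 0.558 and 0.439 in the authors' deposited table.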

How the data were processed

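Per the labels' protocols, liver RNA of 16 mice was extracted with Trizol and sequenced as stranded mRNA libraries. The submitters' processing notes name FastQC, Trimmomatic, HISAT2, HTSeq 0.11.1 and GRCm38, without roles. Per the file headers, the deposited table gives per gene the authors' mean normalized count (a signal), log2 fold change with its SE (log2), test statistic (a score), p-value and adjusted p-value. No source used here gives the tool, the model or the sides. The 16 columns per library match no label and were not used, so the planned edgeR tests of diet and DEN were not run.

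Checked on the values, the statistic is the fold change over its SE, the p-value its 2-sided normal p, and the adjusted p the Benjamini-Hochberg value over all 16288 tested genes. Called means an adjusted p below 0.05. Intervals are 95% normal intervals. Scripts used Python 3.11.15, pandas 2.3.3 and scipy 1.17.1. Positions and exon lengths came from GENCODE M21 on GRCm38 (30372 of 30463 genes matched, 99.7%) and promoters from RefSeq on GRCm38.p6.

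The members and 18 lists (11 related, 7 of markers) were chosen with earlier results of these data known. All 9 members are named, and of each list the called genes or, where none was, the 3 with the smallest p, plus receptors and partners of members. Some genes chosen by this rule are not reported here. Selenop, Rbp4, Scd1, Furin, Asns, Lmf1, Inhbb, Chac1, Nupr1, Slc7a11, Vldlr, the activin receptors, Alb, adipocyte genes and genes neighbouring or overlapping a member were named after their values were seen. So were Cpt1a, Cyp4a10, G6pc and Irs2. Tested on simulated statistics for 16288 genes, the calls recovered 140 of 200 genes changed 2-fold, with 9 false calls. Normal noise of the authors' SE was drawn there, so the share of false calls follows from that setting. It does not measure how many calls in the authors' deposited table are false. The 8 alternatives were other adjustments, count minimums of 10 and 100, thresholds of 0.01 and 0.1, a t distribution and a scaled statistic.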

Additional observations from a re-analysis of the deposited data

How the results depend on the processing

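Of the 9 genes 3 were called as deposited, and of 148 genes of the related lists outside the 9, 24 of the 135 tested. The 9 genes gave 2 calls with Benjamini-Hochberg over every gene with a p-value (Angptl8 and Ahsg), a setting that called 2.52% of 30463 genes. At a threshold of 0.01 they gave 1 (Ahsg, the count being 12 for the related lists), beside 3.01% of the 16288 tested genes. They gave 0 with Bonferroni adjustment, with a t distribution of 12 degrees of freedom and with the statistic divided by the median absolute deviation, and in each of these settings the related lists gave 7 calls. Over all genes those settings called 1.14%, 1.16% and 0.872% of 16288, beside 6.57% as deposited. A threshold of 0.1 gave 4 (Inhbe added) beside 9.75% of all tested genes. Minimums of 10 and 100 on the mean normalized count gave 3 each, beside 7.94% of 13531 and 9.09% of 9315 genes kept. Of the cell type markers 4 were called as deposited and 2 (Cfd and Pparg) with the first adjustment, at 0.01 and under the settings that left 0 of the 9 genes. The adjusted p of Ahsg ran from 0.000275 to 0.118 over all settings, that of Angptl8 from 0.0133 to 1, that of Fgf21 from 0.0262 to 1 and that of Inhbe from 0.0714 to 1. Of 72 member values under an alternative, 59 stayed on their side of the threshold, 12 lost a call and 1 gained one. No fold change depends on these settings. The t distribution assumes that all 16 samples in 4 groups entered the authors' model, which is not stated.

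No paired analysis was possible because the columns per library match no sample label, and for the same reason leaving out replicates, DESeq2 and a filter on counts per library were not run. The depth per library is not known here, so how far depth limits Fgf21 and Gdf15, the lowest of the 9 in level, was not tested.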
